A study of Mus musculus with 11 samples.

Results

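The 39 protein-coding genes of the HoxA, HoxB, HoxC and HoxD clusters were followed in RNA from sorted epidermal cells of the mouse back. Members were all protein-coding genes whose Ensembl 96 symbol is Hoxa, Hoxb, Hoxc or Hoxd with a number, 11, 10, 9 and 9 genes, of 55536 genes in the files. The rule uses gene names only. Of the 39 members, 28 passed a filter on low counts and were tested, among 20307 genes tested in all.

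Hox genes encode homeodomain transcription factors that give cells their position along the body axis. Within a cluster, genes with low paralog numbers are used towards the head and genes with high numbers towards the tail and the limb ends, and adult skin cells keep part of this code. Hox proteins bind DNA together with the TALE homeodomain proteins of the Pbx, Meis and Pknox families, while Polycomb and Trithorax proteins keep the clusters silent or active.

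All libraries came from dorsal skin of male CD4Cre R26-tdT mice on the C57Bl6/N background, aged 29 weeks (replicate 1 of each group) or 32 weeks (the other replicates), with cells of 2 mice pooled per library. In these mice a CD4-driven Cre switches on the red reporter tdT, which stays on in the descendants of a cell, and T cells use the same driver. Cells sorted as CD49f+CD34+Sca-1neg, the bulge stem cell gate of the hair follicle, gave 3 tdT+ and 3 tdTneg libraries, and CD49f+CD34+Sca-1+ cells gave 3 tdT+ and 2 tdTneg libraries. They are called Sca-1neg and Sca-1+ cells here. From the way the study's methods describe the sorts, same-numbered libraries were taken to share their mice. The reported fit has no term for this, and where a block on the replicate number changes a call its value is given beside the result. All p-values measure the spread between these libraries.

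Totals ran from 17409131 to 46542177 counts per library. Levels are given as normalized CPM, which is the count scaled to a common library total with TMM factors, and levels of different genes are compared only per kilobase (kb) of exon. Keratinocyte markers summed to 18668 normalized CPM or more in every library. Ly6a, which encodes SCA-1, lay between 2.46 and 59.2 normalized CPM in Sca-1neg and between 153 and 294 in Sca-1+ libraries, whereas Cd34, also a sort marker, lay at only 22.3 to 35.6 in the Sca-1+ tdT+ libraries against 319 to 382 in Sca-1+ tdTneg and 467 or more in Sca-1neg libraries. A row outside the Ensembl genes held 133 to 307 CPM in tdT+ libraries, except for 2.05 CPM in the library labelled Sca-1neg tdT+ replicate 2, and 2.54 to 4.89 CPM in tdTneg libraries. This library thus stood apart from its label. Without it, the counts of called members given below would be 10 (9 lower and 1 higher) in place of 9 lower for Sca-1+ against Sca-1neg cells as a mean over tdT status, 10 in place of 11 within tdT+ cells, and the same in the other comparisons. Counts without molecular identifiers carry amplification error as well as counting error.

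Expression concentrated on paralogs 5 to 9, which held 82.7% ± 1.39 (SD, n = 11 libraries) of the summed Hox level per kb. Paralogs 10 to 13 held 3.97% ± 1.31, and 0.635% ± 0.923 when Hoxc13 was set aside. Hoxc13, a regulator of hair keratin genes, was the only member of these paralogs above 1 normalized CPM in every library. Hoxa13 had 0 counts in all 11 libraries, where 3 counts would be 0.0645 to 0.172 CPM.

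**Figure D1:**
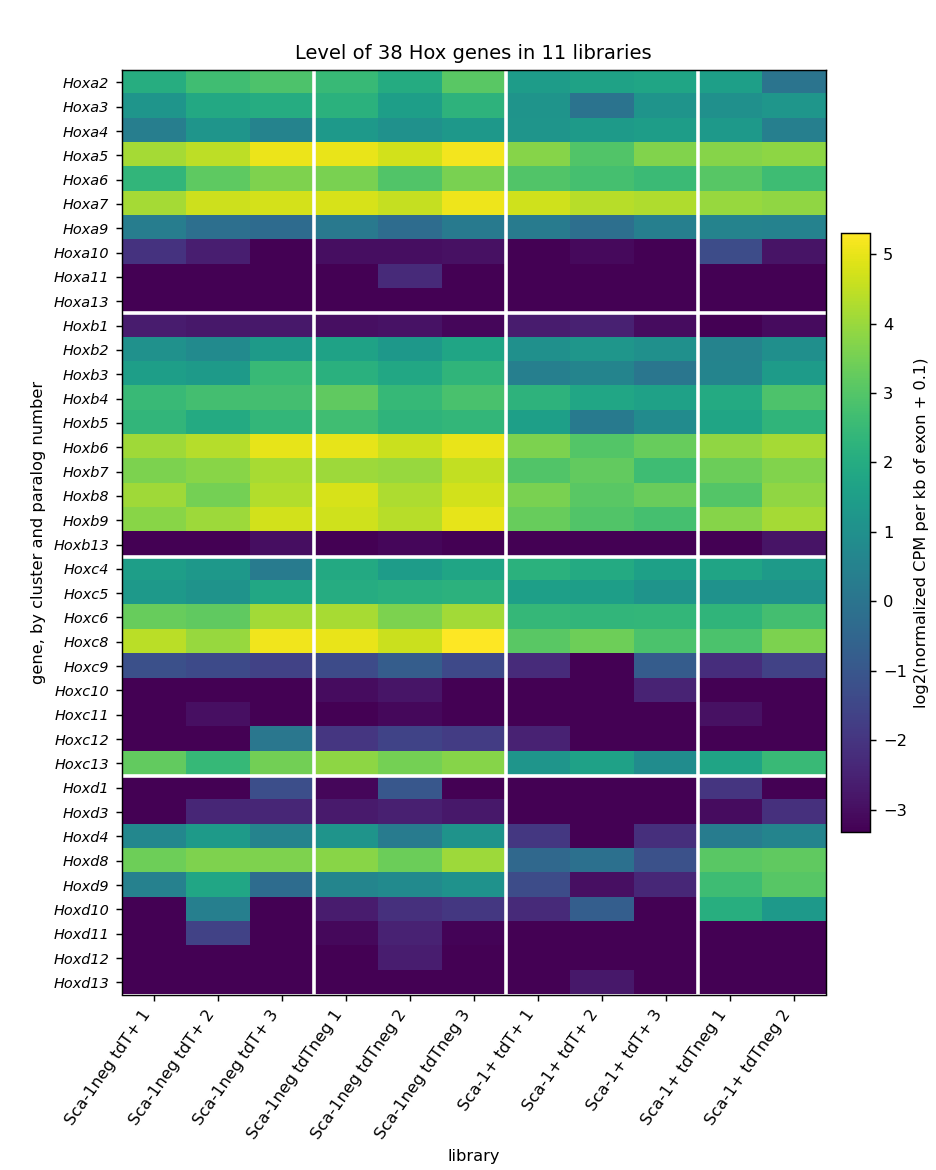
Colour gives the log2 of normalized CPM per kb of exon plus 0.1 for 38 Hox genes (rows, by cluster and paralog number) in each of the 11 libraries (columns, by sorted group). The brightest bands lie among paralogs 5 to 9, Hoxa9 and Hoxc9 are dim, Hoxc13 stands alone among the high numbers, and Hoxd4, Hoxd8 and Hoxd9 are dark in the 3 Sca-1+ tdT+ libraries.

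The remaining members of low count were accounted for as follows. The 11 members not tested were Hoxa11, Hoxa13, Hoxb1, Hoxb13, Hoxc10, Hoxc11, Hoxc12, Hoxd3, Hoxd11, Hoxd12 and Hoxd13, and their highest value in any library was 0.991 normalized CPM (Hoxc12, Sca-1neg tdT+ replicate 3). Hoxa10, Hoxc9 and Hoxd1 were tested with at most 1.16 normalized CPM in any library.

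Per kb of exon, Hoxa7 had the highest mean level over the 11 libraries with 22.8 ± 5.84 normalized CPM per kb, followed by Hoxa5 with 20.7 ± 9.65, Hoxb6 with 19.9 ± 9.03 and Hoxc8 with 19.4 ± 11.8. These neighbours differed by less than their SD. Hoxa7 shares 20.4% of its exon bases with the opposite-strand gene Hoxaas3 and the other 3 share 0, so its level and rank are uncertain. Hoxa2, Hoxa3, Hoxa4, Hoxb2, Hoxb5, Hoxc5 and Hoxd10 also share 3.6% to 27.3% of their exon bases with a neighbouring gene. In 3 of the 4 groups the top of the order was not resolved. In Sca-1neg tdT+ cells Hoxa5 had the highest mean with 24.01 and Hoxc8 the next with 23.9, yet Hoxa5 was above Hoxc8 in 1 of 3 libraries. In Sca-1neg tdTneg cells Hoxc8 (32.2) was above Hoxa5 (31.4) in 2 of 3, and in Sca-1+ tdTneg cells Hoxb6 (15.96) was above Hoxb9 (15.6) in 1 of 2. In Sca-1+ tdT+ cells Hoxa7 had 21.9, and all 3 of its libraries lay above those of the next member, Hoxa5, at 11.2. Hoxd8 led HoxD with 8.62 ± 5.58. By cluster, HoxB held the largest mean share of the summed level per kb in 3 of the 4 groups, namely 39.6% ± 1.57 in Sca-1neg tdT+, 40.8% ± 0.661 in Sca-1neg tdTneg and 42.4% ± 5.36 in Sca-1+ tdTneg libraries (n = 3, 3 and 2). In Sca-1+ tdT+ libraries HoxA led with 41.8% ± 2.87 over HoxB with 37.9% ± 1.16. The HoxC share was 22.2% ± 4.11 in Sca-1neg tdT+, 23.9% ± 0.342 in Sca-1neg tdTneg, 19.4% ± 2.71 in Sca-1+ tdT+ and 15.7% ± 1.88 in Sca-1+ tdTneg libraries (n = 3, 3, 3 and 2).

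**Figure D2:**
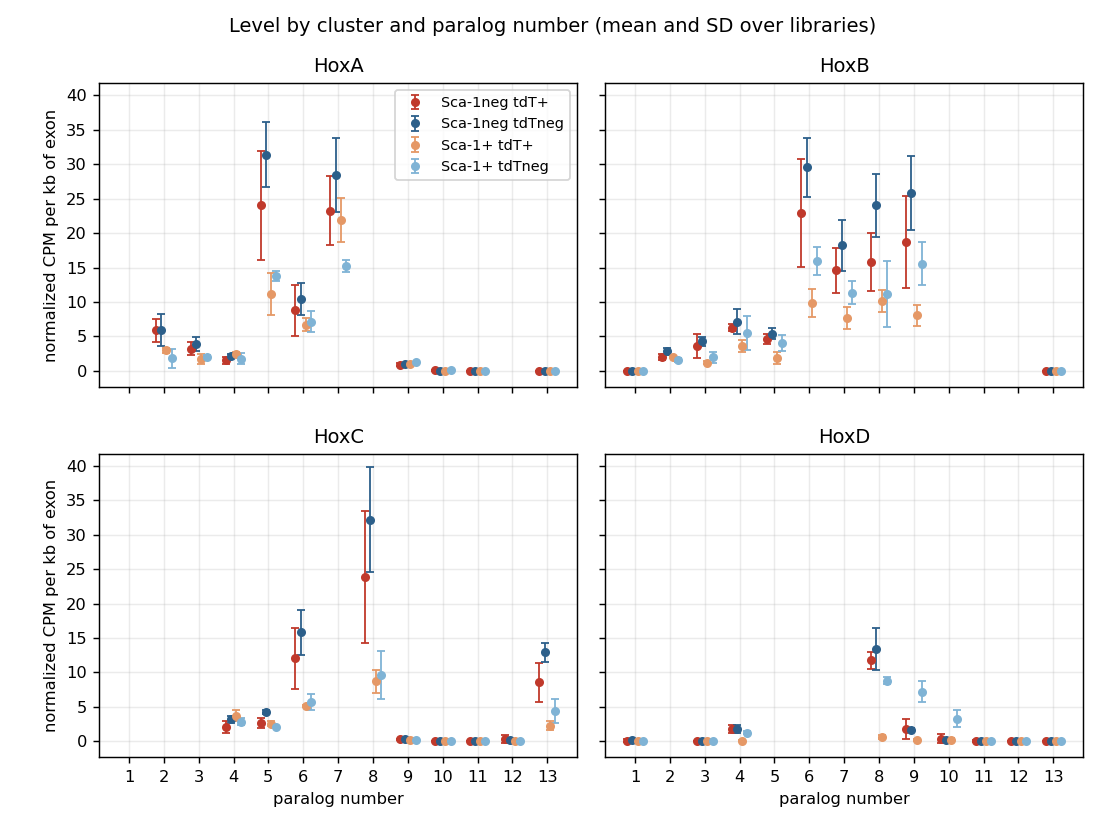
Level in normalized CPM per kb of exon (vertical axis) by paralog number (horizontal axis) for each cluster. Points are group means and bars are SDs over 3, 3, 3 and 2 libraries. HoxA peaks at Hoxa5 and Hoxa7, HoxB is spread over Hoxb6 to Hoxb9, HoxC peaks at Hoxc8 with Hoxc13 apart, and HoxD peaks at Hoxd8.

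The first comparison asked how Sca-1+ cells differ from Sca-1neg bulge cells. As the mean over tdT status, 9 of the 28 tested members were lower in Sca-1+ cells and 0 were higher (edgeR quasi-likelihood test, adjusted p under 0.05 and more than a doubling or halving). Among all genes tested, 6.79% were called lower and 11.6% in either direction. The median log2 fold change was -0.83 over the 28 members and -0.09 over all genes, and 24 of 28 members lay below 0 and 4 above with TMM and with RLE scaling, against 55.9% and 44.1% of all genes. Called higher were 4.77% of all genes. For 5 members, Hoxa2, Hoxa5, Hoxc6, Hoxc8 and Hoxd8, every Sca-1+ library lay below every Sca-1neg library, against 5.67% of all genes (5.1% lay wholly above). In bulk RNA, fewer cells of a type and less RNA per cell cannot be told apart. The 6 bulge markers were all called lower, and the 5 T cell, 5 leukocyte and 4 Langerhans cell markers were all called higher in the same comparison. Leukocyte markers summed to 6.94 to 118 normalized CPM in Sca-1neg and to 96.6 to 523 in Sca-1+ libraries. T cell markers summed to 18.8 to 60.3 and 116 to 842, and their part in the result was not tested. Of the other lists, 3 of 5 interfollicular epidermis markers and 1 of 4 pericyte markers were called higher and 2 of 5 melanocyte markers lower. Among fibroblast, endothelial, Schwann cell and skeletal muscle markers edgeR gave 0 calls in either direction. These 0 counts were not all steady. With limma voom 3 endothelial markers were called higher and 2 Schwann cell markers lower, with DESeq2 1 endothelial marker was called higher, and with a filter of 1 count in any library edgeR called 3 endothelial markers higher. The 7 endothelial markers all lay above 0 with a median log2 fold change of 1.51, and 4 were called higher without Sca-1neg tdT+ replicate 2 and 1 without Sca-1neg tdT+ replicate 3. Without Sca-1+ tdT+ replicate 2 there was 1 fibroblast call, and without that library or Sca-1+ tdT+ replicate 3 there was 1 Schwann cell call, all lower. Ly6a, 1 of the interfollicular calls, and Cd34, 1 of the bulge calls, encode proteins the cells were sorted on. The melanocyte count was 0 without Sca-1neg tdT+ replicate 1, Sca-1+ tdT+ replicate 1 or Sca-1+ tdTneg replicate 2, and 1 without any other library but Sca-1+ tdT+ replicate 2. With the block it was 1, and the bulge and Langerhans cell counts were 5 and 3. Of 5 keratinocyte markers, 2 were called higher and 1 lower, and the lower 1 was Krt15, which is also among the 6 bulge markers.

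HoxC contributed 3 of the 9 calls. Hoxc8, a patterning gene of the thoracic trunk, stood at 60.8, 44.7 and 97.5 normalized CPM in the Sca-1neg tdT+ libraries and 92.4, 68.9 and 112 in the Sca-1neg tdTneg libraries. In Sca-1+ cells it stood at 23.9, 29.7 and 20.4 in tdT+ and 20.2 and 34.3 in tdTneg libraries. The populations did not overlap, and the log2 fold change was -1.60 (SE 0.25, edgeR adjusted p = 0.00193). Its neighbour Hoxc6 ran 23.5, 21.99, 41.3 and 43.6, 29.1, 41.7 in Sca-1neg tdT+ and tdTneg libraries, against 12.6, 12.1, 12.4 and 11.9, 15.6 in the Sca-1+ ones. Again no library overlapped, with a log2 fold change of -1.35 (SE 0.21, edgeR adjusted p = 0.00192).

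Hoxc13 fell as well, although its highest Sca-1+ library, 14.02 normalized CPM in tdTneg replicate 2, passed its lowest Sca-1neg library, 13.4 in the tdT+ replicate 2 that stood apart. The other Sca-1neg libraries held 22.8, 26.9, 34.8, 27.9 and 32.6 and the other Sca-1+ libraries 5.27, 7.32, 4.23 and 7.93. Its log2 fold change was -1.72 (SE 0.26, edgeR adjusted p = 0.0016). Whether the hair shaft genes fell with it is not settled, since their levels were low and their intervals wide. Summed over 11 of them, Sca-1neg tdT+ libraries held 13.6 to 19.0 normalized CPM and Sca-1neg tdTneg libraries 7.53 to 15.1. All 10 tested had log2 fold changes above 0, with a median of 1.69 and a median interval half-width of 2.76. An unadjusted p under 0.05 in edgeR was reached by 3. Of the 10 tested, 2 were called higher and 0 lower. The count was 0 without Sca-1+ tdTneg replicate 1 and 1 without Sca-1+ tdTneg replicate 2. They were Foxn1, a transcription factor of hair keratinization, at 1.69 (adjusted p = 0.0147 in edgeR) and Padi3, an enzyme that modifies hair shaft proteins, at 2.29 (adjusted p = 0.0157 in edgeR).

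The other HoxC members were not called. Hoxc4 had a log2 fold change of 0.34 (SE 0.27), Hoxc5 of -0.56 (SE 0.21) and Hoxc9 of -0.79 (SE 0.85). Hoxc5 is listed by library because it came close in tdTneg cells. It held 7.52, 6.37 and 10.8 normalized CPM in Sca-1neg tdT+, 12.3, 12.99 and 14.2 in Sca-1neg tdTneg, 8.73, 8.62 and 6.50 in Sca-1+ tdT+, and 6.23 and 6.28 in Sca-1+ tdTneg libraries. It was thus lowest in the Sca-1+ tdTneg libraries and highest in the Sca-1neg tdTneg libraries.

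In HoxA, Hoxa5 and Hoxa2 were called. Hoxa5, which patterns the neck, thorax and lung, held 33.2, 40.3 and 61.7 normalized CPM in Sca-1neg tdT+ and 60.5, 49.4 and 66.8 in Sca-1neg tdTneg libraries, against 24.9, 14.4 and 23.6 in Sca-1+ tdT+ and 24.9 and 26.8 in Sca-1+ tdTneg libraries. The populations were separate, with a log2 fold change of -1.14 (SE 0.20, edgeR adjusted p = 0.00419). Hoxa2, the selector gene of the second branchial arch, held 7.198, 11.2 and 12.9, then 9.93, 6.86 and 15.1 in the Sca-1neg groups and 4.66, 5.39 and 5.83, then 4.99 and 1.59 in the Sca-1+ groups, with tdT+ first. These did not overlap either, at -1.33 (SE 0.35, edgeR adjusted p = 0.0266).

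Hoxa7, the member with the highest mean level per kb over the 11 libraries, was not called. It held 50.6, 72.2 and 77.7 normalized CPM in Sca-1neg tdT+, 79.6, 67.7 and 98.03 in Sca-1neg tdTneg, 73.4, 59.5 and 55.8 in Sca-1+ tdT+, and 45.5 and 42.1 in Sca-1+ tdTneg libraries. The populations overlapped, and the log2 fold change of -0.49 (SE 0.15, edgeR adjusted p = 0.0432) was under the size needed for a call. Hoxa3 likewise passed on adjusted p but not on size, at -0.94 (SE 0.28). With the block neither passed on adjusted p (0.082 and 0.0596 in edgeR). Hoxa4, Hoxa6, Hoxa9 and Hoxa10 lay between -0.46 and 0.37 and did not pass the test.

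In HoxB all 8 tested members had log2 fold changes below 0, from -1.37 to -0.44. Hoxb6 and Hoxb3 were called. Hoxb6, a trunk patterning gene, held 33.0, 39.8 and 62.4 normalized CPM in Sca-1neg tdT+, 62.6, 48.4 and 63.3 in Sca-1neg tdTneg, 23.5, 15.7 and 19.0 in Sca-1+ tdT+, and 28.4 and 34.2 in Sca-1+ tdTneg libraries. Its populations overlapped by 1 library on each side, and the log2 fold change was -1.05 (SE 0.19, edgeR adjusted p = 0.00463). With the block it was -0.98 (adjusted p = 0.00971 in edgeR), just under the size needed, which left 8 called members. Hoxb3, a hindbrain and neck gene that shares 52.9% of its exon bases with the antisense gene Hoxb3os, held 11.8, 10.6 and 23.7, then 18.7, 14.9 and 20.9 in the Sca-1neg groups and 5.14, 5.90 and 4.02, then 5.94 and 10.8 in the Sca-1+ groups, tdT+ first. Its log2 fold change was -1.37 (SE 0.28, edgeR adjusted p = 0.00872), and reads of the 2 strands cannot be told apart since the kit does not mark strand.

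Hoxb5, Hoxb7, Hoxb8 and Hoxb9 passed on adjusted p with changes of -0.97 to -0.80, under the size needed for a call, and Hoxb2 and Hoxb4 did not pass. With the block the adjusted p of Hoxb5 was 0.0673 in edgeR. Hoxb9, a thoracic patterning gene, held 35.1, 41.7 and 67.5 normalized CPM in Sca-1neg tdT+, 66.3, 52.9 and 80.6 in Sca-1neg tdTneg, 25.1, 19.8 and 17.4 in Sca-1+ tdT+, and 34.4 and 45.8 in Sca-1+ tdTneg libraries. Here 1 of the 2 Sca-1+ tdTneg libraries reached into the Sca-1neg range, and the other 4 Sca-1+ libraries lay below it. Hoxb8 held 43.9, 29.6 and 51.6, then 71.7, 49.3 and 68.9 in the Sca-1neg groups and 30.9, 22.6 and 26.5, then 20.6 and 38.5 in the Sca-1+ groups, tdT+ first. Hoxb5 held 13.9, 10.5 and 14.4, then 17.5, 13.4 and 14.5 in the Sca-1neg groups and 7.91, 2.95 and 4.69, then 9.14 and 13.6 in the Sca-1+ groups. For both genes the populations overlapped.

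**Figure D3:**
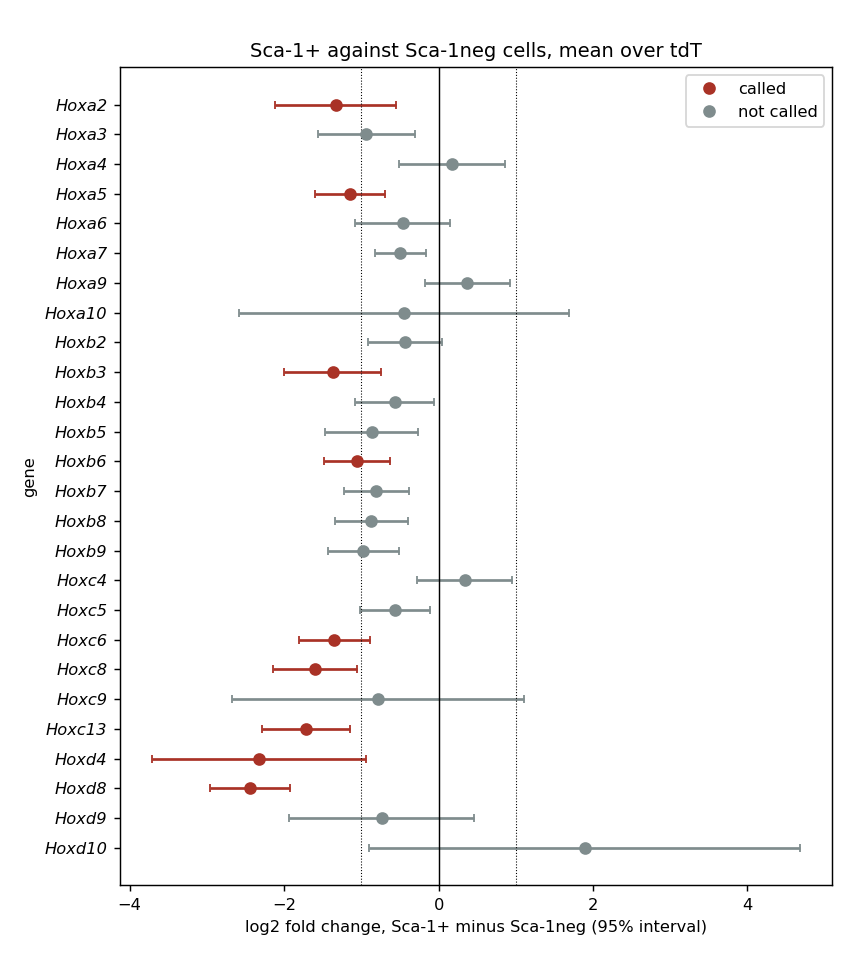
Log2 fold change of Sca-1+ against Sca-1neg cells (horizontal axis, mean over tdT status, with its 95% interval) for 26 tested Hox genes (vertical axis). Hoxd1 is left out because it had 0 counts in all Sca-1+ tdT+ libraries. Dotted lines mark the size needed for a call. The 9 called genes, in red, all lie below 0, from -2.44 for Hoxd8 to -1.05 for Hoxb6.

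In HoxD, Hoxd8 and Hoxd4 were called lower in this mean over tdT status, at -2.44 (SE 0.23, edgeR adjusted p = 0.000216) and -2.32 (SE 0.62, edgeR adjusted p = 0.0284). Their values by library are given with the tdT comparison, because the mean covers unlike values in the tdT+ and tdTneg libraries. With population as the only factor, the values were -1.69 (edgeR adjusted p = 0.147) for Hoxd8 and -1.65 (adjusted p = 0.219) for Hoxd4. Hoxc6, Hoxc8, Hoxc13 and Hoxd8 were called with each library left out in turn. Hoxa2 was lost without Sca-1neg tdTneg replicate 3, Sca-1+ tdT+ replicate 1 or 2, or Sca-1+ tdTneg replicate 2 (adjusted p from 0.0514 to 0.115), and Hoxb3 without Sca-1+ tdTneg replicate 1 (0.0594). Hoxd4 was lost without Sca-1neg tdT+ replicate 2, Sca-1neg tdTneg replicate 1 or 3 or either Sca-1+ tdTneg library (0.0518 to 0.154). Hoxa5 and Hoxb6 dropped just under the size needed without Sca-1neg tdT+ replicate 3, and Hoxb6 also without Sca-1+ tdT+ replicate 2 or Sca-1+ tdTneg replicate 1. The count was 6 without Sca-1+ tdTneg replicate 1 and between 7 and 11 without any other library. Without Sca-1neg tdT+ replicate 2, 9 members were lower and 1 was higher, Hoxd10, for which no fold is given because the Sca-1neg tdT+ libraries that remain had 0 counts of it. With 1 of the 2 Sca-1+ tdTneg libraries left out, the remaining library is assumed to vary like the other groups, here and in each comparison that uses that group.

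Within tdT+ cells, 11 of 28 members were lower in Sca-1+ than in Sca-1neg libraries and 0 were higher, against 5.54% of all genes called lower and 8.45% in either direction. The median was -1.001 over members and -0.07 over all genes, and 25 of 28 lay below 0 and 3 above, against 53.4% and 46.5% of all genes. Called higher were 2.91% of all genes. An unadjusted p under 0.05 was reached by 16 members and by 30.5% of all genes. For 15 members every Sca-1+ library lay below every Sca-1neg library and for 1, Hoxc4, above, against 15% and 15.4% of all genes. The 11 were Hoxa5, Hoxb3, Hoxb5, Hoxb6, Hoxb9, Hoxc6, Hoxc8, Hoxc13, Hoxd4, Hoxd8 and Hoxd9. Hoxb5 had the least support with -1.31 (SE 0.36, edgeR adjusted p = 0.0409) and Hoxd8 the most with -4.28 (SE 0.33, edgeR adjusted p = 0.000169). In the same comparison 5 of 6 bulge markers and 1 of 5 melanocyte markers were called lower, and 5 of 5 T cell, 1 of 5 leukocyte and 1 of 5 interfollicular epidermis markers higher, with 0 endothelial and 0 Langerhans cell markers called in either direction by edgeR. Called higher as well were 2 of 5 keratinocyte and 1 of 4 pericyte markers, as they were with each library left out. The 7 endothelial markers all lay below 0 with a median of -2.05, but DESeq2 called 1 lower, 4 were called lower without Sca-1neg tdT+ replicate 3 and 2 were called higher without Sca-1neg tdT+ replicate 2. Without the latter 1 Langerhans cell marker was called higher too. The leukocyte count was 3 with the block, 2 without Sca-1neg tdT+ replicate 1 and 5 without Sca-1neg tdTneg replicate 2. The interfollicular count was 0 without Sca-1neg tdT+ replicate 1 or Sca-1+ tdT+ replicate 2, and 2 with the block or without Sca-1neg tdTneg replicate 1 or 2. The melanocyte count was 0 with the block, 0 without each of 7 libraries and 2 without Sca-1+ tdT+ replicate 2. The part of these markers was not tested. Without Sca-1+ tdT+ replicate 3 the count of members was 4, and without Sca-1neg tdT+ replicate 3 it was 6. Hoxb5 was lost without each of 9 libraries (edgeR adjusted p from 0.0537 to 0.114). Hoxb3 and Hoxc8 were lost without Sca-1+ tdT+ replicate 1, Hoxa5 and Hoxb9 without Sca-1+ tdT+ replicate 2, and Hoxa5 without Sca-1+ tdTneg replicate 2. Hoxc13, Hoxd4 and Hoxd8 were called with each library left out in turn.

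Within tdTneg cells, 3 of 28 members were lower in Sca-1+ libraries and 0 were higher, against 1.45% of all genes called lower and 4.74% in either direction. The median was -0.78 over members and -0.13 over all genes, and 23 of 28 lay below 0 and 5 above, against 58.3% and 41.6% of all genes. Called higher were 3.29% of all genes. The libraries did not overlap for 16 members that were lower and 4 that were higher in Sca-1+ cells, against 26.4% and 19.9% of all genes. The 3 were Hoxc6 at -1.47 (SE 0.31, edgeR adjusted p = 0.0264), Hoxc8 at -1.74 (SE 0.37, edgeR adjusted p = 0.0268) and Hoxc13 at -1.53 (SE 0.38, edgeR adjusted p = 0.0443). Hoxa5 (adjusted p = 0.0526 in edgeR), Hoxb8 (0.0784) and Hoxc5 (0.0775) just missed, and Hoxa7 passed on adjusted p (0.0459) with -0.90, under the size needed. Hoxd9 at 2.09 (SE 0.77, edgeR adjusted p = 0.157) and Hoxd10 at 4.80 (SE 1.95, edgeR adjusted p = 0.193) were above 0 without being called. With the block 1 member was called, Hoxc6 at -1.33 (edgeR adjusted p = 0.0467), while Hoxc8 was at -1.62 (0.0527), Hoxc13 at -1.53 (0.0899) and the adjusted p of Hoxa7 was 0.0976. In the same comparison 5 of 5 T cell, 3 of 5 leukocyte, 3 of 4 Langerhans cell, 3 of 7 endothelial and 2 of 5 interfollicular epidermis markers were called higher, as was 1 of 4 pericyte markers, while 4 of 6 bulge and 1 of 5 keratinocyte markers were called lower, and their part was not tested. The keratinocyte call was Krt15, which is also counted among the bulge markers. The keratinocyte count was 0 without Sca-1neg tdTneg replicate 1 or 3 or either Sca-1+ tdTneg library, and the pericyte count 0 without Sca-1+ tdTneg replicate 1. The endothelial count was 0 without Sca-1neg tdTneg replicate 1 or 3 or either Sca-1+ tdTneg library, and 7 without Sca-1neg tdT+ replicate 3. The bulge count was 0 without Sca-1neg tdTneg replicate 3 or Sca-1+ tdTneg replicate 1, and the T cell count was 1 without either of these. The Langerhans cell count was 0 without Sca-1+ tdTneg replicate 1 and 2 to 4 without any other library. The leukocyte count was 1 without Sca-1neg tdTneg replicate 1 or 3 or either Sca-1+ tdTneg library, and 5 without Sca-1neg tdTneg replicate 2. The interfollicular count was 1 without each of 8 libraries. The count of members was 0 without Sca-1neg tdTneg replicate 1 or 3 or without either Sca-1+ tdTneg library, and 5 without Sca-1neg tdT+ replicate 3. Hoxc13 was lost without each of 8 libraries (edgeR adjusted p from 0.0525 to 0.372). The comparisons within tdT+ and tdTneg cells and their mean rest on the same libraries. The tdT+ and tdTneg counts are not a test of a difference, and that test is given below with the tdT comparison.

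Between tdT+ and tdTneg Sca-1neg cells, 0 of 28 members were called, against 0.00985% of all genes. At an unadjusted p under 0.05 there was 1 member, Hoxc5 at -0.67 (SE 0.27), against 8.42% of all genes, and DESeq2 and limma voom called 0 members too. The log2 fold changes of 23 of the 28 members lay below 0 and 5 above (21 and 7 with RLE scaling), against 52.6% and 47.3% of all genes, with a median of -0.29, and the median half-width of their 95% intervals was 0.76. Hoxc5 and Hoxc13 were the members whose libraries did not overlap, both lower in tdT+ cells, 2 of 28 against 10.9% of all genes. Markers of other cells moved in this comparison too, although edgeR called 0 of them. All 5 leukocyte markers and 4 of 5 T cell markers were wholly higher in tdT+ libraries with an unadjusted p under 0.05 (median log2 fold changes of 2.51 and 3.37), and 5 of 6 bulge markers lay below 0. All 5 interfollicular epidermis, 4 Langerhans cell and 7 endothelial markers lay above 0, with medians of 1.80, 2.09 and 2.26. Of these, 3, 3 and 2 had an unadjusted p under 0.05 in edgeR. All 5 keratinocyte, 5 melanocyte and 4 Schwann cell markers lay below 0. DESeq2 called 4 leukocyte and 4 T cell markers higher. The part of all these markers in the members' values was not tested.

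Between tdT+ and tdTneg Sca-1+ cells, 2 of 28 members were called, Hoxd8 and Hoxd9, both lower in tdT+ cells. Of all genes, 2.06% were called lower and 2.31% in either direction. The members' median was -0.33 against 0.04 over all genes, and 21 of 28 lay below 0 and 7 above, against 45.7% and 53.6% of all genes. Groups did not overlap for 12 members that were lower and 3 that were higher in tdT+ cells, against 17.2% and 15.8% of all genes.

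Both calls lay in HoxD, on chromosome 2. The wholly lower members also included 5 of 8 tested in HoxB, 2 of 9 in HoxA and 1 of 6 in HoxC. In each of these other clusters 1 member was wholly higher. Hoxd8, a patterning gene of the trunk, held 1.81, 2.21 and 0.928 normalized CPM in the Sca-1+ tdT+ libraries and 23.2 and 25.2 in the Sca-1+ tdTneg libraries. In Sca-1neg cells it held 28.4, 34.2 and 33.96 in tdT+ and 37.1, 28.3 and 44.8 in tdTneg libraries. Sca-1+ tdT+ cells were thus alone in their low level. The counts behind these values were 68, 39 and 18 in Sca-1+ tdT+ and 733 and 603 in Sca-1+ tdTneg libraries, and the log2 fold change was -3.87 (SE 0.33, edgeR adjusted p = 0.000776).

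Hoxd9, a gene of the lumbar trunk and the limb, held 0.639, 0.0567 and 0.206 normalized CPM in Sca-1+ tdT+ and 13.02 and 17.7 in Sca-1+ tdTneg libraries. In Sca-1neg cells it held 2.72, 7.17 and 1.54 in tdT+ and 3.03, 3.49 and 4.29 in tdTneg libraries. All 4 groups lay in an order with Sca-1+ tdTneg at the top and Sca-1+ tdT+ at the bottom, and the 2 Sca-1neg groups overlapped. The log2 fold change between tdT+ and tdTneg Sca-1+ cells was -5.57 (SE 0.89, edgeR adjusted p = 0.0108). It was not called without Sca-1+ tdT+ replicate 3 (edgeR adjusted p = 0.0538) or Sca-1+ tdTneg replicate 2 (0.0758), which left 1 called member, Hoxd8.

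Hoxd4, a gene of the hindbrain and neck, just missed. It held 0.479, 0 and 0.361 normalized CPM in Sca-1+ tdT+ and 3.32 and 4.10 in Sca-1+ tdTneg libraries, and 4.39, 7.44 and 3.96 in Sca-1neg tdT+ and 6.19, 3.25 and 6.12 in Sca-1neg tdTneg libraries. The log2 fold change was -3.65 (SE 0.90, edgeR adjusted p = 0.0711), and it was called without Sca-1+ tdT+ replicate 2 (0.0273). Hoxd4 shares 52.3% of its exon bases with Hoxd3, Hoxd3os1 and Gm28230. Hoxd10, a gene of the limb and the lumbar cord, held 7.55 and 4.39 in Sca-1+ tdTneg libraries, 2.19 in Sca-1neg tdT+ replicate 2 and at most 0.908 in every other library, and was not called (-4.05, SE 1.91, edgeR adjusted p = 0.372).

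**Figure D4:**
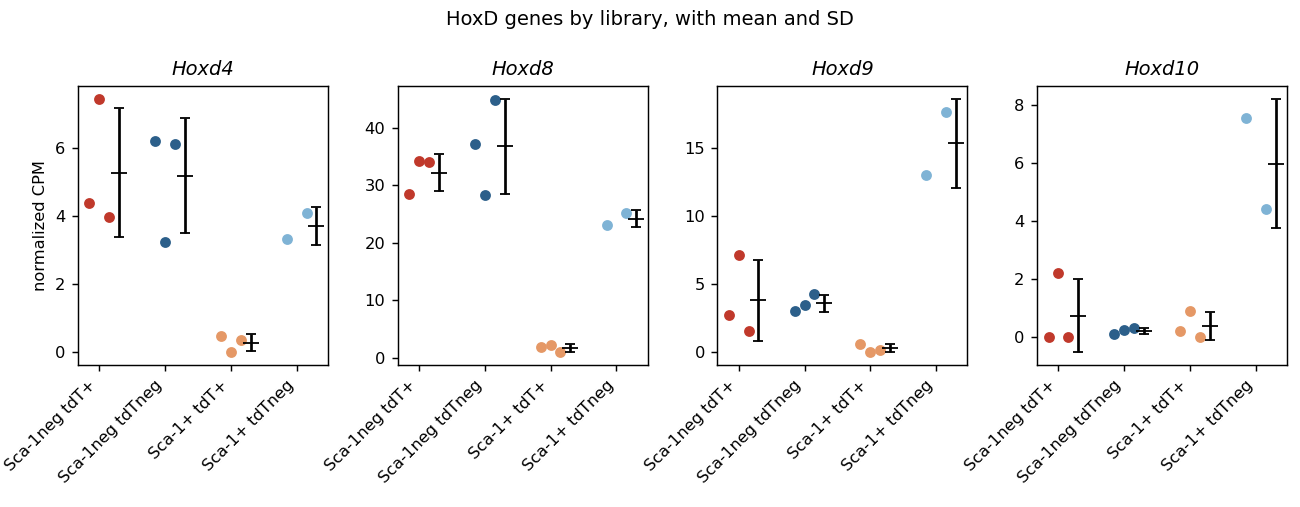
Normalized CPM (vertical axis, one scale per gene) of Hoxd4, Hoxd8, Hoxd9 and Hoxd10 in each library by sorted group (horizontal axis), with the mean and SD beside the points. The 3 Sca-1+ tdT+ libraries are at or below 2.21 for all 4 genes, while Hoxd9 and Hoxd10 are highest in the 2 Sca-1+ tdTneg libraries.

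Whether tdT+ and tdTneg cells differed by unlike amounts in the 2 populations was tested as an interaction term, which called 1 of 28 members, Hoxd8, at -3.68 (SE 0.43, edgeR adjusted p = 0.00988), against 0.389% of all genes in either direction and 0.379% lower. Across members 15 values lay below 0 and 13 above (17 and 11 with RLE scaling), against 47.5% and 52.5% of all genes. RLE scaling moved the median of all genes by -0.116 in this comparison. For Hoxd8 the log2 fold change of tdT+ against tdTneg cells was -0.19 (SE 0.28) in Sca-1neg and -3.87 in Sca-1+ cells. Hoxd9 just missed at -5.65 (SE 1.10, edgeR adjusted p = 0.0688), and DESeq2 and limma voom called it. Without Sca-1+ tdTneg replicate 2 the count was 0, with Hoxd8 at an adjusted p of 0.068, and without Sca-1neg tdT+ replicate 3 it was 2, with Hoxd9 at 0.0257. The members of the other clusters were not called by edgeR in this test, with log2 values of -0.90 (Hoxb5, SE 0.53) to 1.02 (Hoxc5, SE 0.41). Hoxa10 is left out of this range because it had 1 count in all in the 3 Sca-1+ tdT+ libraries.

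In shares, HoxD made up 0.894% ± 0.365 of the summed Hox level per kb in Sca-1+ tdT+ libraries (n = 3), 13.2% ± 0.964 in Sca-1+ tdTneg (n = 2), 7.42% ± 2.36 in Sca-1neg tdT+ and 5.96% ± 0.256 in Sca-1neg tdTneg libraries (n = 3 each). This share does not depend on the scaling between libraries. Hoxb9 was not called between tdT+ and tdTneg Sca-1+ cells, at -0.95 (SE 0.29, edgeR adjusted p = 0.151), although its values did not overlap. Hoxa7 leaned the other way, at 0.52 (SE 0.22, edgeR adjusted p = 0.312).

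Markers of another cell type moved with HoxD. The 7 endothelial markers summed to 1804 and 1866 normalized CPM in the Sca-1+ tdTneg libraries and to 36.0 to 66.1 in the Sca-1+ tdT+ libraries, with a median log2 fold change of -5.18. All 7 had an unadjusted p under 0.05 and did not overlap between these groups, and edgeR called 2 of 7 lower. That count turned on single libraries. It was 0 without any 1 of the 5 Sca-1+ libraries, 7 without Sca-1neg tdT+ replicate 3, 6 without Sca-1neg tdT+ replicate 2, and 1 without Sca-1neg tdTneg replicate 1 or 3 or with the block. In Sca-1neg libraries they summed to 6.44 to 473, with the highest value in tdT+ replicate 2, the Sca-1neg library with the most Hoxd9 and Hoxd10. No endothelial marker was at 0 throughout a group. Hoxd8 stood at 33.96 where the endothelial sum was 6.44, in Sca-1neg tdT+ replicate 3, and at 0.928 to 2.21 in the Sca-1+ tdT+ libraries at sums of 36.0 to 66.1. T cell markers summed to 305 to 842 in Sca-1+ tdT+ and 116 to 122 in Sca-1+ tdTneg libraries, and 3 of 5 were called higher (0 without either Sca-1+ tdTneg library). Of 6 bulge markers 3 were called lower in Sca-1+ tdT+ than in Sca-1+ tdTneg cells, namely the sort marker Cd34 and the stem cell genes Lgr5 and Lhx2. The part of these cells in the HoxD result was not tested.

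**Figure D5:**
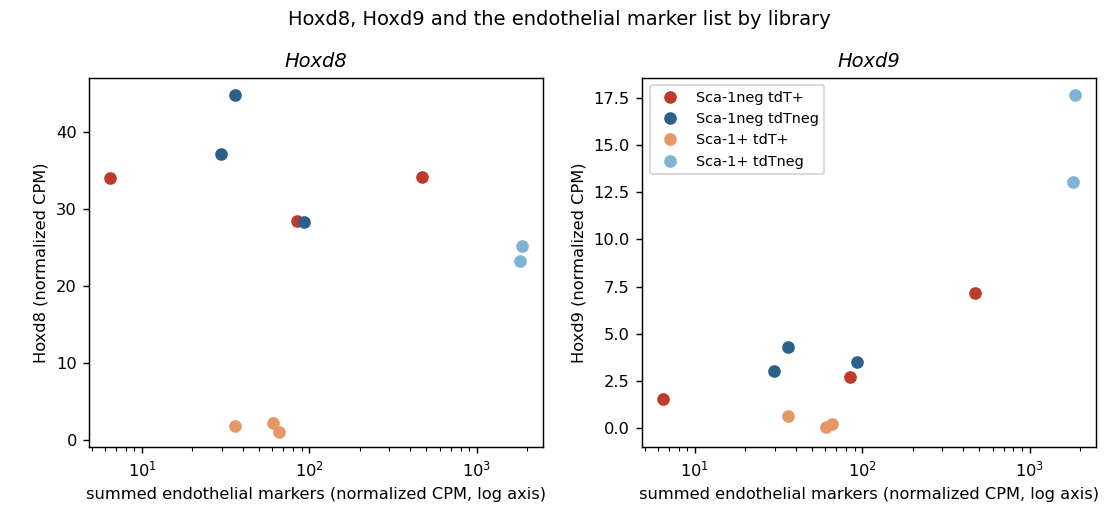
Normalized CPM of Hoxd8 and Hoxd9 (vertical axes) against the summed normalized CPM of 7 endothelial markers (horizontal log axes), with 1 point per library coloured by sorted group. Hoxd8 is high in Sca-1neg libraries with endothelial sums of 6.44 to 473, and Hoxd9 is highest in the 2 libraries with sums of 1804 and 1866.

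The sequences just before the starts of Hoxd8, Hoxd9 and Hoxd10 are shown because these neighbours differ in the pattern above. They are RefSeq promoter windows of GRCm38.p6, all on the plus strand, at chr2:74704365-74704614 for Hoxd8, chr2:74697513-74697726 for Hoxd9 (cut before the Ensembl start) and chr2:74691641-74691890 for Hoxd10. Capitals mark the GC box GGGCGG on either strand. No capital marks the Hox-Pbx motif TGATNNAT or the TATA box TATAAA, which were searched on both strands and not found in these 3 windows. No match overlaps another.
Hoxd8: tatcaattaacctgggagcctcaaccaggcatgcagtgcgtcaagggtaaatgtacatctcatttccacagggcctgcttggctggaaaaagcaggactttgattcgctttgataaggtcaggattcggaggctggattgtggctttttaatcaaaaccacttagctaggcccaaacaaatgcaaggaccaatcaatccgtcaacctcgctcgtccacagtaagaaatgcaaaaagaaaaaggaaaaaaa
Hoxd9: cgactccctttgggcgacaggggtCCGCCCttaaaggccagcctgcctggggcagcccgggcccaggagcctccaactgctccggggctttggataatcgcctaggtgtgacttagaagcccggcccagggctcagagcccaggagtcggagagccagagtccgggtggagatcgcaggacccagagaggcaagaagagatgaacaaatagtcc
Hoxd10: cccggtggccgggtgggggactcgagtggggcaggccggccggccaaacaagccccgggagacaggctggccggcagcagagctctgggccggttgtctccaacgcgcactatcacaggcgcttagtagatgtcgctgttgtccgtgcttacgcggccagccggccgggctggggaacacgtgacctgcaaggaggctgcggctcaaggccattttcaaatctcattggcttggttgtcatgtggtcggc

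The Hoxd8 window held 6 CG pairs and 44.4% G and C, the Hoxd9 window 10 and 63.6%, and the Hoxd10 window 20 and 65.6%. RefSeq windows were found for 22 of the 39 members (24 windows of 250 bases), with a median of 12.5 CG pairs against 6 over 32851 windows of all genes. The GC box was in 10 of these 24 windows and in 32.7% of all windows, TGATNNAT in 4 and in 7.68%, and TATAAA in 4 and in 12.4%. A match is only a run of letters.

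The clusters also hold 43 non-coding genes, of which 15 were tested. In the mean over tdT status 3 were called lower in Sca-1+ cells and 0 higher, with a median of -0.73. Reads of antisense genes and of the Hox genes they overlap cannot be told apart, so the values of Hoxb5os and Hoxd3os1 are uncertain. The count was 0 without either Sca-1+ tdTneg library, 4 without Sca-1+ tdT+ replicate 2, 2 without each of 4 other libraries, and 2 with the block, where Haglr was not called. Hoxb5os, antisense to Hoxb5, fell by 1.80 on the log2 scale (SE 0.46, edgeR adjusted p = 0.0229). Hoxd3os1, antisense at Hoxd3 and Hoxd4, held 3.26 to 5.07 normalized CPM in Sca-1neg and 0 to 1.42 in Sca-1+ libraries, a fall of 2.90 (SE 0.71, edgeR adjusted p = 0.0192). Haglr, a non-coding gene that starts beside Hoxd1, had 0 counts in all Sca-1+ tdT+ libraries and 0.136 to 0.826 normalized CPM in the others. Its mean in Sca-1neg tdT+ cells was 14.2-fold above a floor of 3 counts over the Sca-1+ tdT+ group. That mean rests on 3, 14 and 15 counts, so the fold is rough. Gm53, a non-coding gene between Hoxb9 and Hoxb13, held 18.7 to 47.2 normalized CPM and fell by 0.76 (SE 0.17, edgeR adjusted p = 0.0119), under the size needed for a call. Between tdT+ and tdTneg cells edgeR called 0 of the 15 in either population. At an unadjusted p under 0.05 there were 0 in Sca-1neg and 2 in Sca-1+ cells, against 8.42% and 14.6% of all genes. In Sca-1+ cells the tdTneg mean of Haglr, from 14 and 11 counts, was 11.2-fold above the same floor for tdT+ cells (edgeR adjusted p = 0.0586).

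Among partners and regulators, the TALE cofactors divided between directions in Sca-1+ against Sca-1neg cells. Of 9 tested, 2 fell and 2 rose, with a median of -0.26. Pknox2 held 8.74 to 19.4 normalized CPM in Sca-1neg and 2.10 to 3.31 in Sca-1+ libraries (log2 fold change -2.46, SE 0.29, edgeR adjusted p = 0.000553), and Pbx3 held 27.9 to 62.7 and 7.32 to 27.2 (-1.48, SE 0.27, edgeR adjusted p = 0.00465). Meis3 rose by 1.67 (SE 0.34) and Pbx4 by 1.44 (SE 0.29), both from under 4 normalized CPM in Sca-1neg libraries. Without Sca-1+ tdTneg replicate 1 neither was called higher, and Pbx3 and Pknox2 remained. Of 14 Polycomb genes 1 was called, Cbx8, a subunit of the first Polycomb complex, which held 18.7 to 28.2 in Sca-1neg and 6.601 to 11.2 in Sca-1+ libraries (-1.504, SE 0.16, edgeR adjusted p = 0.00035). The call held with each library left out in turn. The list's median was -0.29, and 10 of the 14 had an unadjusted p under 0.05, against 34.4% of all genes. Of 8 Trithorax and H3K27 demethylase genes 0 were called by edgeR, 0 had an unadjusted p under 0.05, and DESeq2 and limma voom called 0, with a median of 0.12.

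Retinoic acid, an inducer of Hox genes in the embryo, was followed through 17 genes of its pathway. In Sca-1+ against Sca-1neg cells 1 was called lower and 1 higher, with a median of -0.64. Crabp1, which binds retinoic acid in the cytosol, held 3.58 to 8.38 normalized CPM in Sca-1neg, 1.30 and 3.45 in Sca-1+ tdTneg, and 0.0516 to 0.266 in Sca-1+ tdT+ libraries. It was lower in Sca-1+ cells (-3.17, SE 0.46, edgeR adjusted p = 0.00142) and lower in tdT+ than tdTneg Sca-1+ cells (-3.64, SE 0.64, edgeR adjusted p = 0.0174), so its values followed those of Hoxd8 in direction. The tdT call was lost without Sca-1+ tdTneg replicate 1. Stra6, the receptor for retinol uptake, rose by 1.16 in Sca-1+ cells (SE 0.32, edgeR adjusted p = 0.0336), a call lost without each of 8 libraries. Without 1 of these, Sca-1neg tdT+ replicate 3, the pathway had 3 genes called lower. Of 17 other patterning factors 6 were tested and 1 was called, Lmx1b, a dorsal limb gene, which fell by 1.81 (SE 0.41, edgeR adjusted p = 0.0127), with a list median of 0.04. The count was 0 without Sca-1+ tdTneg replicate 1 and 2 without Sca-1+ tdT+ replicate 3.

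Across the 11 libraries, members of 1 cluster varied together in HoxB above all, as a description. The median Pearson r of log2 CPM was 0.84 over the 28 pairs within HoxB (range 0.33 to 0.98), 0.26 over the 36 pairs within HoxA, 0.41 over 15 within HoxC and 0.29 over 10 within HoxD, against 0.35 over 289 pairs from different clusters. The points share libraries and the group differences above. The non-member genes most like Hoxa7, the member with the highest mean level per kb over these libraries, were Cars2 (r = 0.96), Fam3a (r = 0.95) and Eral1 (r = 0.95) over the same 11 libraries. They are the highest of a search through all non-members among the 20307 genes tested, so their r does not mark a link to Hoxa7.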

How the data were processed

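RNA was sequenced from 11 libraries, and the authors deposited raw read counts per gene. Per the labels and the study's methods, reads were demultiplexed with bcl2fastq 2.20.0.422, checked with FastQC, aligned to mm10 with STAR and counted with featureCounts. DESeq2 1.18.1 was used by the authors for their own tests. The strand setting and the treatment of overlapping genes are not given in the sources used here.

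Counts were tested with edgeR 4.0.16 in R 4.3.3 (TMM factors, filterByExpr over the 4 groups, quasi-likelihood F-test, 1 fit of all 11 libraries), with Benjamini-Hochberg adjustment over all 20307 genes tested. A gene was called at an adjusted p under 0.05 and a log2 fold change beyond 1 in size. The 6 comparisons were tdT+ against tdTneg in each population, the populations within each tdT status and as a mean, and the interaction. A row outside the Ensembl genes stayed out of the fit. Levels per kb divide normalized CPM by the union of Ensembl 96 exons on GRCm38. Promoter windows came from RefSeq GRCm38.p6. The study's methods describe biological replicates of pooled mice sorted into all the populations, so same-numbered libraries were taken to share mice. Once group means were subtracted, log2 CPM correlated with a median r of 0.0828 over 15 same-numbered pairs (-0.415 to 0.589, 7 over 0.1) and of -0.0226 over 30 others. The code of the fits was also run on simulated counts, and no outcome of that run is used here. Alternatives were DESeq2 1.42.0, limma 3.58.1 (voom), other scaling and filters, a replicate block, fewer groups and each library left out.

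The members, the gene and marker lists and the rule for named genes (all members, with values by library for those called, leading a cluster or just missing a call, and called list genes) were chosen with earlier results of these data known. Of 12 hair shaft genes listed, 10 were tested. The values of 1 member are not reported here.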

Additional observations from a re-analysis of the deposited data

Results flagged for a closer look

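Hoxd8 differed between the populations in how tdT+ and tdTneg cells compared. The interaction was -3.67785 on the log2 scale (SE 0.43, 95% interval -4.64 to -2.72, edgeR adjusted p = 0.00988), with tdT+ cells lower in 3 of 3 Sca-1+ libraries against both Sca-1+ tdTneg libraries and overlapping in Sca-1neg cells. Among the other tested members edgeR as reported called 0, while Hoxd9 was called with DESeq2, limma voom and a filter of 1 count in any library, and Hoxd4 with DESeq2.

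The row outside the Ensembl genes, which no comparison used, reached 307.399 CPM in a tdT+ library against at most 4.89 CPM in tdTneg libraries. The library labelled Sca-1neg tdT+ replicate 2 held 2.05 CPM (37 counts). Groups held 2 or 3 libraries, so no library was tested for lying far from its group.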

How the results depend on the processing

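Across 40 pairs of a member and a comparison, 712 alternative fits gave 0 reversals. These pairs had been picked as called, or as having a low unadjusted p in edgeR, on the same libraries. The alternative fits reuse all or most of those libraries, so the 0 is not a separate test of direction. The call was as reported in 602, was lost in 73 and was gained in 37.

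Between tdT+ and tdTneg Sca-1+ cells the count of called members was 4 with DESeq2, 1 with at least 10 counts in every library, and 1 to 3 with a library left out. For Sca-1+ against Sca-1neg cells as a mean it was 15 with no fold threshold and 6 to 11 with a library left out. Within tdT+ cells it was 5 with limma voom and 4 to 11 with a library left out. Within tdTneg cells it was 7 with DESeq2, 5 with a filter of 1 count in any library, 6 with 10 counts in every library, 11 with limma voom, 7 with only the groups compared, and 0 to 5 with a library left out. The interaction gave 3 with DESeq2, 2 with the filter of 1 count in any library, 2 with limma voom, and 0 to 2 with a library left out. In Sca-1neg cells it was 0 throughout. The cause of these shifts was not tested.

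With a replicate block the count was 1 within tdTneg cells, 8 for the mean, 11 within tdT+ cells, 2 and 0 for tdT in Sca-1+ and Sca-1neg cells, and 1 for the interaction. The block changed no other call of a member.

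Only 2 libraries stand behind Sca-1+ tdTneg cells. Low counts limit Hoxa10, Hoxd1, Hoxd4, Hoxd9 and Hoxd10 in Sca-1+ tdT+ cells, where 3 counts are 0.082 to 0.172 CPM.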
